A study of Mus musculus with 12 samples.

Results

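The 10 genes described here encode the cytosolic HSP70 and HSP90 chaperones of the mouse, their best known partners and the transcription factor of the heat shock response. They were taken by symbol from a fixed list, Hsp90aa1, Hsp90ab1, Hspa8, Hspa1a, Hspa1b, Hsph1, Dnajb1, Fkbp4, Stip1 and Hsf1. All 10 stood among the 30803 genes tabulated for the GSH and WT libraries and among the 17558 genes tabulated for the Cas9 and Ctrl libraries. Every sample is labelled 4T1, a mammary carcinoma line derived from a BALB/c mouse and grown as cultured cells in DMEM with serum. The genotypes compared are GSH with WT and Cas9 with Ctrl; the labels neither expand GSH, nor name a gene targeted with Cas9, nor say whether a line was 1 clone or whether replicates were separate cultures. The p-values thus speak only to the spread among these libraries, part or all of which may be technical. There were 3 GSH, 3 WT and 3 Cas9 libraries and 1 Ctrl library (Ctrl 3), and Ctrl 1 and Ctrl 2 were not analysed here.

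HSP70 and HSP90 are ATP-driven chaperones that hold and fold client proteins in the cytosol, among them kinases, steroid receptors and transcription factors. J-domain proteins bring clients to HSP70 and stimulate its ATPase, nucleotide exchange factors reset it, and Stip1 passes clients on from HSP70 to HSP90. Constitutive forms (Hspa8, Hsp90ab1) serve unstressed cells, whereas Hspa1a, Hspa1b and, in part, Hsp90aa1, Hsph1 and Dnajb1 are induced when HSF1 binds heat shock elements, which are arrays of the unit nGAAn in alternating orientation.

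Library totals, recovered from the steps of the values, ran from 18531444 to 30168737 reads for GSH, from 20297490 to 21954133 for WT and from 33152215 to 35742818 for Cas9, with 39201544 for Ctrl 3. All 7 epithelial marker genes, such as Epcam and Krt8, were expressed in both tables. Of the 10 leukocyte markers, 9 stood in the GSH and WT table, where they summed to 5.11 to 14.3 FPKM in GSH and 5.01 to 6.28 FPKM in WT, and 6 stayed below 1 FPKM in every library. Their sum was 2221 to 5464 FPKM in the Cas9 libraries and 4673 FPKM in Ctrl 3, although the labels describe these samples as 4T1 cultures too. Transcripts of odorant-binding, lipocalin and major urinary protein genes summed to 185 to 492 FPKM in GSH 2, GSH 3 and WT 3 and to 5.23 to 13.0 FPKM in GSH 1, WT 1 and WT 2.

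The promoters of 6 of the 10 genes could be read from RefSeq (GRCm38.p6, 250 bases before to 50 bases after the start site), and they are shown for the genes in which the paired heat shock unit GAANNTTC or TTCNNGAA occurred. Both motifs read the same on either strand, overlap in longer arrays, and at least 1 of them was found in the promoters of 16.97% of 27025 genes. Capitals mark the matches.
Hspa1a (chr17:34972214-34972299, minus strand): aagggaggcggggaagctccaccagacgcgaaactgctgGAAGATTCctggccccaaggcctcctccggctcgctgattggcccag
Hspa1b (chr17:34959296-34959381, minus strand): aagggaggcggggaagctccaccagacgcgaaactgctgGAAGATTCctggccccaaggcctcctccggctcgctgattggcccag
Fkbp4 (chr6:128438761-128438846, minus strand): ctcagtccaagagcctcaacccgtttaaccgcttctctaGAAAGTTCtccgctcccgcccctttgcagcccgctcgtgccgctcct
Hsph1 (chr5:149636287-149636372, minus strand): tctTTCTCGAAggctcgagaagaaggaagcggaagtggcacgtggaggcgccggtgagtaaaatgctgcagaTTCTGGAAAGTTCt
The windows of Hspa1a and Hspa1b have the same letters. In Hsph1 the last run of capitals joins 3 units, that is, GAANNTTC followed after any 2 bases by GAA when read on the opposite strand. Such an array, searched on both strands, was found in 0.66% of genes, and in Hsph1 it begins 15 bases past the start site of this window. No match to the paired unit was found in the windows of Dnajb1 and Stip1, which says only that these letters are not there.

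Hspa1a and Hspa1b are neighbouring copies on chromosome 17, and their coding sequences, of 1926 and 1929 bases in GENCODE M21 transcripts, differed at 8 of 1926 aligned bases. The stretch of coding bases 1357 to 1416 is shown because no other 60 bases held more of these differences. Capitals mark the 2 bases that differ, and positions count from the first base of the start codon.
Hspa1a: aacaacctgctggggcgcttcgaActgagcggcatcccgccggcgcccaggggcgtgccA
Hspa1b: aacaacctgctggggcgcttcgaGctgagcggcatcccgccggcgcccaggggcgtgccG
Of all 100-base windows of the Hspa1b transcripts, 49.9% occurred unchanged in Hspa1a, and of those of Hspa1a 47.1% occurred in Hspa1b. Counting all other genes, the share for Hspa1a was 56.5%. Reads from either copy can thus be assigned to the other or be dropped, which leaves the values of both genes uncertain. The shares do not measure by how much. Pseudogenes such as Gm12346 and Gm15459 raise the same doubt for Hsp90aa1 and Hspa8, whose windows occurred in transcripts of other genes in 38.0% and 28.5% of cases. The share was 3.2% for Stip1 and 0% for Hsp90ab1, Hsph1, Dnajb1, Fkbp4 and Hsf1.

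In GSH cells 7 of the 9 chaperone genes that could be tested were more abundant than in WT cells, by 7.73% to 31.1%, and 0 were less abundant. Of the tested genes, the HSP90 partner Fkbp4 and the constitutive Hsp90ab1 and Hspa8 had the largest log2 changes (0.39, 0.33 and 0.27). The partly inducible Hsp90aa1 and Dnajb1 were called higher as well (0.25 and 0.21). The stress-inducible Hspa1b was the only tested HSP70 gene of the list without a detectable difference, and its copy Hspa1a was too low to test. Hsf1 stood slightly lower in GSH without passing the test. Values are FPKM, read counts scaled to gene length and library total. Tests were made with limma on log2(FPKM + 1) over all genes with a mean of 1 FPKM or more, and a Benjamini-Hochberg adjusted p under 0.05 was called. Of 12283 tested genes, 20.6% were called higher and 16.4% lower in GSH. The median log2 change of the 9 genes was 0.21, against 0.02 over all tested genes. The 9 genes' groups did not overlap for 7 genes that were higher and 1 that was lower, and over all tested genes this was so for 29% and 23.5%.

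**Figure D1:**
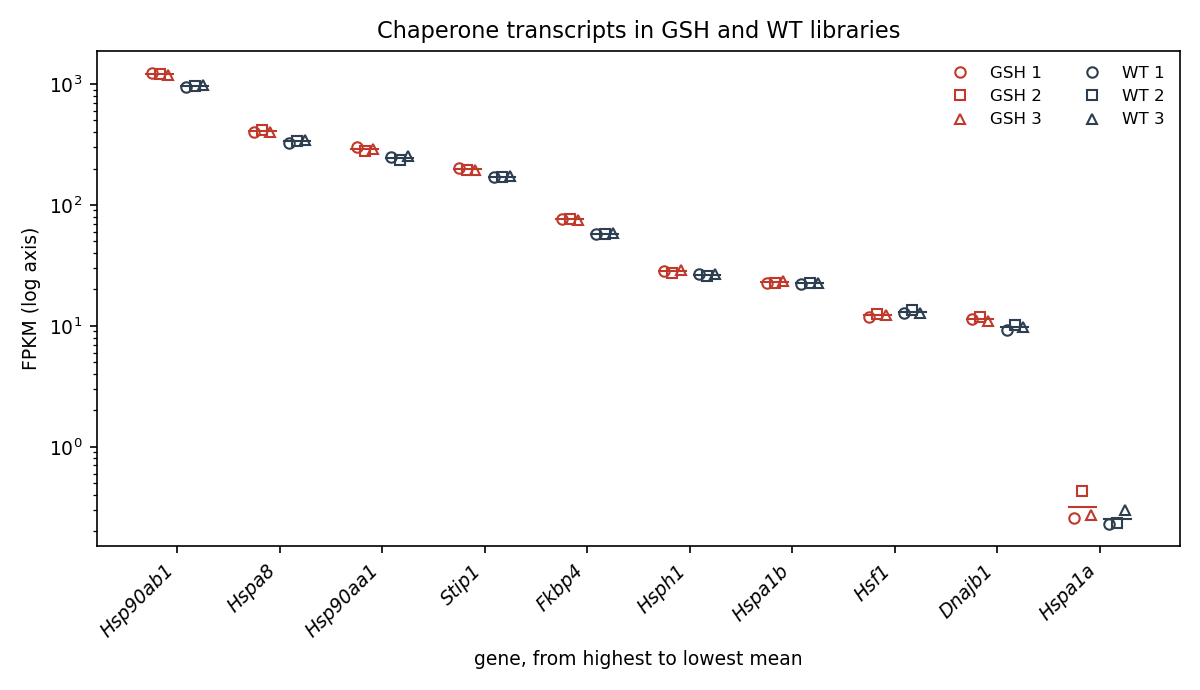
FPKM (log axis) of the 10 chaperone genes for every GSH library (red, left of each pair) and WT library (dark blue, right). Points are libraries and horizontal lines group means; Hsp90ab1 lies near 1000 FPKM in both groups and Hspa1a below 1 FPKM.

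HSP90 comes in 2 cytosolic forms, of which Hsp90ab1 (ENSMUSG00000023944) is the constitutive one. It had 1227, 1209 and 1184 FPKM in GSH 1 to 3, against 937, 965 and 975 FPKM in WT 1 to 3. Every GSH library lay above every WT library, and the log2 change was 0.33 (SE 0.03, limma adjusted p = 0.00201). The gene ranked 15 to 16 by FPKM among all genes of GSH cells and 18 to 21 among those of WT cells. Hsp90aa1 (ENSMUSG00000021270), the inducible form, had 303, 280 and 292 FPKM in GSH cells, against 250, 236 and 252 FPKM in WT cells. Its groups did not overlap either (log2 change 0.25, SE 0.04, limma adjusted p = 0.0067). The ratio of Hsp90aa1 to Hsp90ab1 was 0.242 ± 0.00893 in GSH and 0.257 ± 0.0113 in WT (SD, n = 3 each), and these ranges overlapped (exact two-sided permutation p = 0.3).

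Among the HSP70 genes, Hspa8 (ENSMUSG00000015656), the constitutive HSC70, had 403, 416 and 399 FPKM in GSH 1 to 3, against 328, 336 and 343 FPKM in WT 1 to 3. The groups did not overlap (log2 change 0.27, SE 0.03, limma adjusted p = 0.00245). Hspa1b (ENSMUSG00000090877), an inducible HSP70, had 22.6, 22.7 and 23.5 FPKM in GSH cells, against 22.1, 22.8 and 22.7 FPKM in WT cells. These ranges overlapped and the difference did not pass (log2 change 0.02, SE 0.03, limma adjusted p = 0.533). Its twin Hspa1a (ENSMUSG00000091971) was counted at 23, 24 and 15 reads in GSH 1 to 3 and at 15, 14 and 19 reads in WT 1 to 3. That is 0.257 to 0.428 FPKM in GSH and 0.23 to 0.299 FPKM in WT, below the 1 FPKM needed for the test. Against the constitutive gene, the inducible pair was lower in GSH: the summed FPKM of Hspa1a and Hspa1b was 0.0573 ± 0.00208 of Hspa8 in GSH and 0.0679 ± 0.000682 in WT (SD, n = 3 each). The ratios did not overlap, and the exact permutation p of 0.1 (adjusted 0.133 over 8 ratios) is the smallest that 3 against 3 libraries can give.

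The HSP70 partners Hsph1 and Dnajb1 were both called higher. Hsph1 (ENSMUSG00000029657), a large HSP70 relative that exchanges nucleotide on HSP70, had 28.6, 27.6 and 29 FPKM in GSH 1 to 3, against 26.7, 25.8 and 26.6 FPKM in WT 1 to 3. The groups were separate, but by little (log2 change 0.10, SE 0.03, limma adjusted p = 0.0364). This call ended without GSH 1 (adjusted p = 0.0891), GSH 3 (0.117), WT 1 (0.0731), WT 2 (0.0991) or WT 3 (0.069). It also ended with relative log expression scaling (0.0666), without the trend (0.0572), without the filter (0.0677) and with a term for secretory transcripts (0.0747). The same held once FPKM were divided by each library's summed FPKM without mitochondrial genes (0.376). In all, 12 of 17 alternatives ended it. Dnajb1 (ENSMUSG00000005483), the J-domain protein induced with HSP70, had 11.5, 11.9 and 11.0 FPKM in GSH cells, against 9.23, 10.2 and 9.81 FPKM in WT cells (log2 change 0.21, SE 0.05, limma adjusted p = 0.0141). Relative to Hspa8, Hsph1 was lower in GSH, at 0.07 ± 0.00323, than in WT, at 0.0786 ± 0.00239 (SD, n = 3 each; exact permutation p = 0.1). For Dnajb1 the ratio was 0.0282 ± 0.000585 in GSH and 0.0291 ± 0.00125 in WT, with overlapping ranges (exact permutation p = 0.4).

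Fkbp4 (ENSMUSG00000030357), the HSP90-bound prolyl isomerase FKBP52 of steroid receptor complexes, had the largest change of the 10 genes that was tested. It stood at 75.8, 76.8 and 75.4 FPKM in GSH 1 to 3, against 57.6, 57.6 and 58.7 FPKM in WT 1 to 3. The spread within each group was under 1 FPKM (SD 0.72 in GSH and 0.667 in WT), and the log2 change was 0.39 (SE 0.02, limma adjusted p = 0.00123). Stip1 (ENSMUSG00000024966), the HOP adaptor between HSP70 and HSP90, had 201, 195 and 195 FPKM in GSH cells, against 169, 169 and 174 FPKM in WT cells (log2 change 0.21, SE 0.03, limma adjusted p = 0.0034). Against Hsp90ab1, Fkbp4 was higher in GSH, at 0.063 ± 0.00109, than in WT, at 0.0604 ± 0.000879, and Stip1 was lower, at 0.163 ± 0.00157 in GSH and 0.178 ± 0.00233 in WT (SD, n = 3 each). Neither pair of ratios overlapped (exact permutation p = 0.1 for each).

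Hsf1 (ENSMUSG00000022556), which encodes the factor that switches on the inducible genes, had 11.8, 12.5 and 12.3 FPKM in GSH 1 to 3, against 12.7, 13.4 and 12.7 FPKM in WT 1 to 3. All GSH values lay below all WT values, but the difference did not pass (log2 change -0.08, SE 0.04, limma adjusted p = 0.134). It passed once FPKM were divided by each library's summed FPKM without mitochondrial genes (log2 change -0.14, limma adjusted p = 0.0416). Mitochondrial genes took 5.72 to 6.1% of reads in GSH and 8.17 to 8.48% in WT. The rescaling uses summed FPKM rather than reads, so these read shares do not give its size. The same rescaling moved the share of all calls that were higher in GSH to 34.1%, against 55.7% as the authors scaled the values. It left 6 of the 7 chaperone genes called higher, all but Hsph1.

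**Figure D2:**
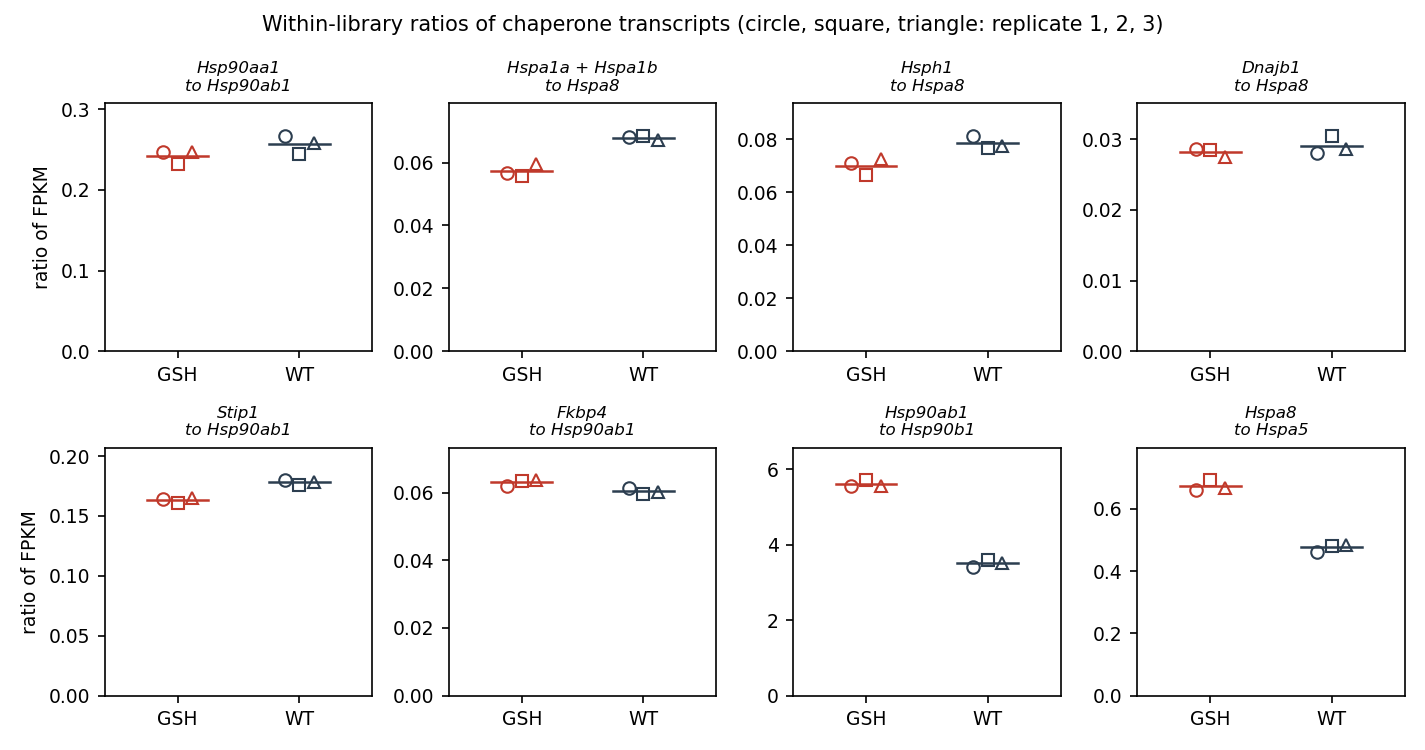
Ratio of FPKM of 2 genes (or of a summed pair to 1 gene) in each GSH library (red, left) and WT library (dark blue, right), with lines at group means and axes from 0. Ratios of Hsp90ab1 to Hsp90b1 and of Hspa8 to Hspa5 are set apart by group, while those of Hsp90aa1 to Hsp90ab1 and of Dnajb1 to Hspa8 overlap.

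In order of level, Hsp90ab1 was followed by Hspa8, Hsp90aa1, Stip1, Fkbp4, Hsph1, Hspa1b, Hsf1, Dnajb1 and Hspa1a in both GSH and WT. Ranges of neighbouring genes were separate in each group, except for Hsf1 and Dnajb1, which overlapped in GSH. Together the 10 genes took 0.744 to 0.763% of reads in GSH cells and 0.61 to 0.63% of reads in WT cells. Hsp90ab1, Hspa8 and Hsp90aa1 supplied 84.4 to 84.6% of the summed FPKM in GSH and 83.6 to 83.8% in WT.

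The wider machinery was described through lists of related genes, each read beside the 20.6% of all tested genes called higher and 16.4% called lower. Among HSP70 exchange factors and partners, 7 of 9 genes were higher in GSH, 1 was lower and 1 did not pass, with a median log2 change of 0.22. Bag2 had 6.57, 6.96 and 6.69 FPKM in GSH 1 to 3, against 5.72, 5.56 and 5.7 FPKM in WT 1 to 3 (log2 change 0.22, limma adjusted p = 0.00509). Hspbp1, an exchange factor of HSP70, and Bag6, which guards misfolded membrane proteins, had log2 changes of 0.25 and 0.13 (adjusted p = 0.00555 and 0.0091). Stub1, the ubiquitin ligase CHIP that docks on HSP70 and HSP90, was the gene that fell, to 13.7 ± 0.718 FPKM in GSH, against 15.7 ± 0.936 FPKM in WT (SD, n = 3 each; limma adjusted p = 0.0423). Its call ended without GSH 2 (0.0845), GSH 3 (0.116), WT 1 (0.0763), WT 2 (0.0529) or WT 3 (0.0964), and under the replicate block (0.0936). It also ended without the filter on low values (0.11), without the trend (0.0531) and with a term for secretory transcripts (0.0722). In all, 11 of 17 alternatives ended it.

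Of 18 further HSP90 co-chaperones, 9 were higher, 2 lower and 7 did not pass, with a median log2 change of 0.16. Cdc37, which loads protein kinases onto HSP90, had 32.6, 32.9 and 33.1 FPKM in GSH 1 to 3, against 25.6, 26.4 and 26.5 FPKM in WT 1 to 3. The groups did not overlap (log2 change 0.32, SE 0.03, limma adjusted p = 0.00162). Ruvbl1, an AAA ATPase of the R2TP complex, which works with HSP90 in complex assembly, had 45 ± 1.68 FPKM in GSH and 35 ± 1.52 FPKM in WT (SD, n = 3 each; limma adjusted p = 0.00258). The Cdc37 relative Cdc37l1 and the TPR co-chaperone Ttc4 went the other way, with log2 changes of -0.26 and -0.16 (adjusted p = 0.00332 and 0.00638).

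Of 10 J-domain genes 3 were higher, 0 lower and 7 did not pass, with a median log2 change of 0.06. The called ones were Dnaja4 (log2 change 0.31, limma adjusted p = 0.0157), Dnaja2 (0.13, adjusted p = 0.0284) and Dnaja1 (0.13, adjusted p = 0.0465). The call of Dnaja4 ended without the filter on low values (adjusted p = 0.0506). The calls of Dnaja1 and Dnaja2 each ended without any 1 of GSH 1, GSH 3, WT 1, WT 2 or WT 3. The limma adjusted p then lay between 0.0643 and 0.122 for Dnaja1 and between 0.0604 and 0.08 for Dnaja2. Both calls also ended without the filter (0.108 for Dnaja1 and 0.0668 for Dnaja2). That of Dnaja1 ended too with relative log expression scaling (0.0714), without the trend (0.0596) and with the term for secretory transcripts (0.0666). In all, 12 of 17 alternatives ended the call of Dnaja1 and 9 of 17 that of Dnaja2. Of 8 other HSP70 family genes 4 reached the filter, and 3 of them were higher and 1 lower. Hspa4, of the HSP110 type, had 81.5 ± 3.26 FPKM in GSH and 70.1 ± 0.256 FPKM in WT (SD, n = 3 each; log2 change 0.21, limma adjusted p = 0.00533), and the ribosome-associated Hspa14 had a log2 change of 0.15 (adjusted p = 0.00762). The third higher gene, Hspa4l, is outside the naming rule and was added after its values were seen (0.15, adjusted p = 0.0373). The lower gene was Hspa13, an HSP70 relative of the microsomes (log2 change -0.22, adjusted p = 0.0103). Of the HSF genes and regulators only Hsf2 and Hsbp1 reached the filter and neither passed (log2 change -0.10 and 0.08, limma adjusted p = 0.0718 and 0.328). Hsf2 did pass with relative log expression scaling (adjusted p = 0.0436), when rescaled without mitochondrial genes (0.0252) and with voom (0.0351).

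**Figure D3:**
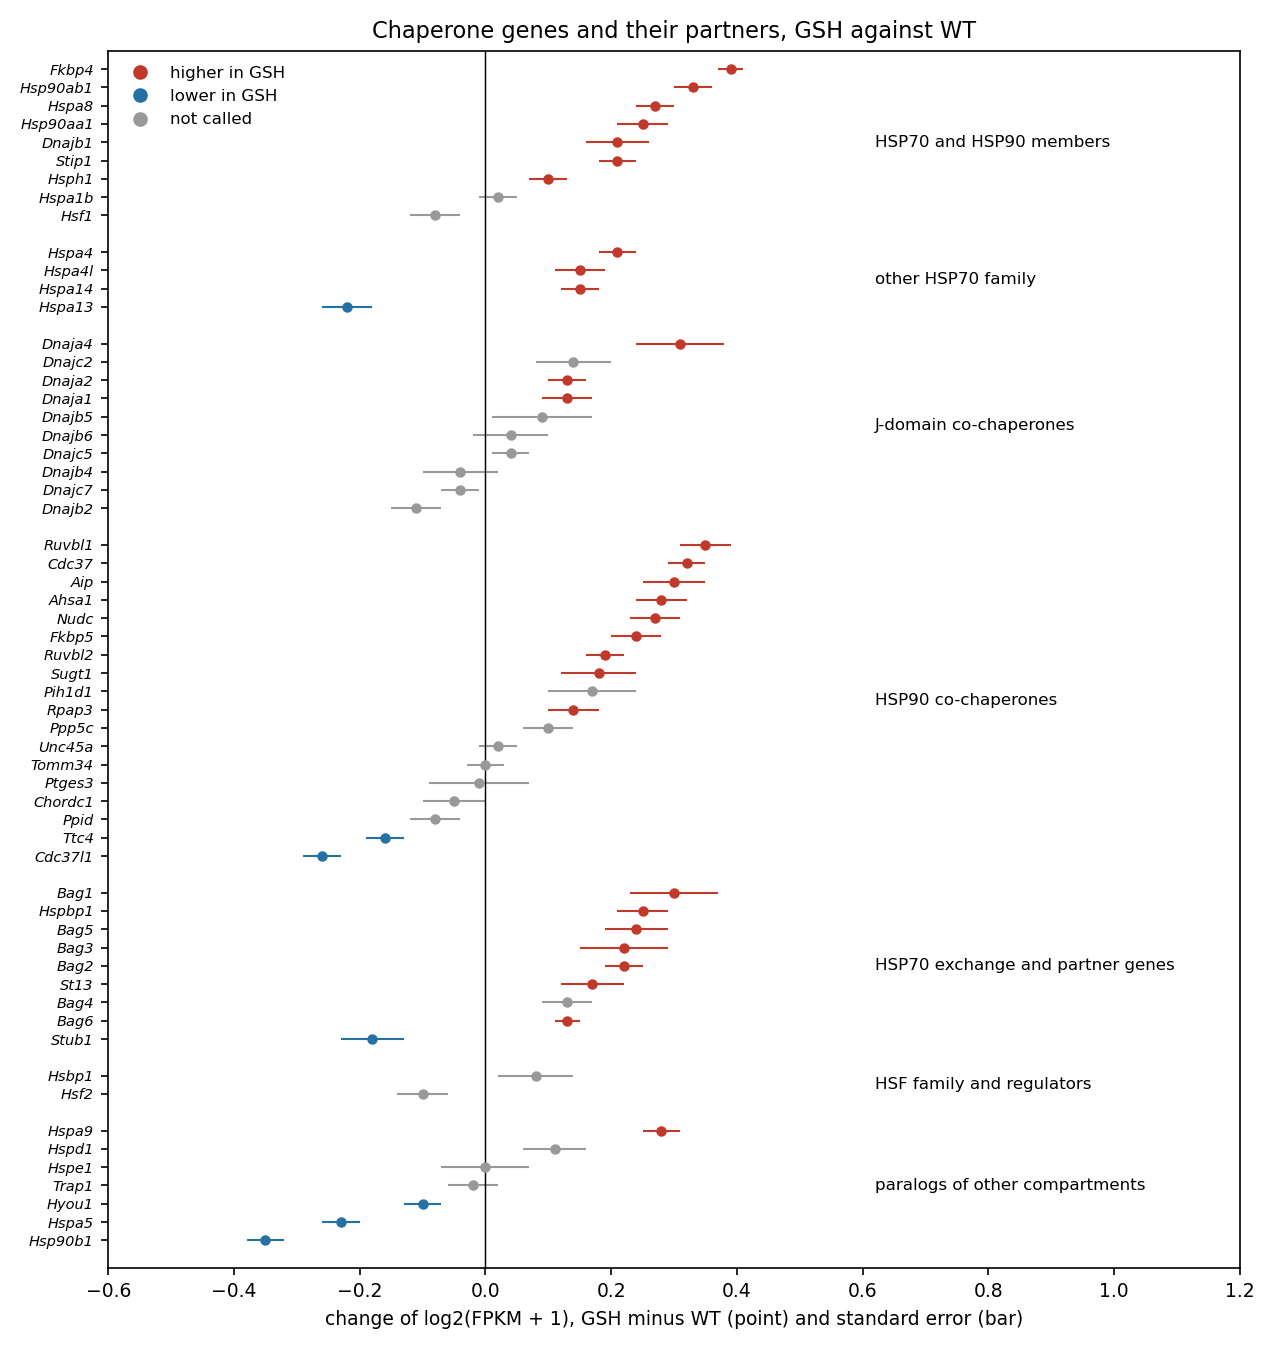
Change of log2(FPKM + 1), GSH minus WT, with its standard error, for the tested chaperone genes and the related lists; red genes were called higher, blue lower and grey not called. Fkbp4 leads the chaperone genes at 0.39, and Hsp90b1 lies at -0.35 among the paralogs of other compartments.

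The paralogs of the endoplasmic reticulum in the list were called lower in GSH, whereas Hsp90ab1, Hsp90aa1 and Hspa8 were called higher. Of 7 organelle chaperones, 1 was higher, 3 were lower and 3 did not pass. Hsp90b1, the HSP90 of the endoplasmic reticulum, and Hspa5, its HSP70, had log2 changes of -0.35 and -0.23 (SE 0.03 each, limma adjusted p = 0.00178 and 0.00302). Hyou1, an exchange factor of the same compartment, was the third lower gene and was named after its values were seen (log2 change -0.10, limma adjusted p = 0.0242). The ratio of Hsp90ab1 to Hsp90b1 was 5.56, 5.71 and 5.55 in GSH 1 to 3, against 3.4, 3.59 and 3.51 in WT 1 to 3. The ratio of Hspa8 to Hspa5 was 0.661, 0.692 and 0.667 in GSH cells, against 0.462, 0.481 and 0.484 in WT cells. Neither ratio overlapped between groups (exact permutation p = 0.1 for each, adjusted 0.133). The mitochondrial HSP70 gene Hspa9 was the higher one, at 87.6 ± 0.462 FPKM in GSH and 72.2 ± 1.51 FPKM in WT (SD, n = 3 each; limma adjusted p = 0.00178).

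The genes nearest in pattern to Hsp90ab1 and Hspa8 lay outside the chaperone list and the related lists. They were picked for their closeness, so the likeness is a description and was not tested. Among 868 genes with a mean of at least 50 FPKM, the 3 whose pattern over the 6 libraries lay nearest to that of Hsp90ab1 were Snrpb, Vcp and Lasp1, at root mean square differences of 0.016, 0.02 and 0.021 in centred log2(FPKM + 1). For Hspa8 they were Atp5b, Eif3h and Got2, at 0.009, 0.01 and 0.01. These 6 genes encode, among others, a spliceosome core protein (Snrpb), a segregase ATPase (Vcp) and a translation initiation factor subunit (Eif3h).

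Immediate early genes, a sign of stimulation or handling, moved in the same direction. Their 12 members summed to 733 to 762 FPKM in GSH and 671 to 677 FPKM in WT, and 7 of 11 tested were called higher and 0 lower, beside 20.6% and 16.4% of all tested genes. Ier3 made up most of the sum, at 478, 457 and 455 FPKM in GSH 1 to 3, against 456, 436 and 454 FPKM in WT 1 to 3. Their part in the chaperone result was not tested. With a term for the libraries high in secretory transcripts, 6 chaperone genes were called higher, again all but Hsph1. Within GSH 2, GSH 3 and WT 3 the log2 changes of the 7 called genes were 0.37 for Fkbp4, 0.29 for Hsp90ab1, 0.25 for Hspa8, 0.18 for Hsp90aa1, 0.20 for Dnajb1, 0.17 for Stip1 and 0.09 for Hsph1. Within GSH 1, WT 1 and WT 2 they were 0.39 for Fkbp4, 0.37 for Hsp90ab1, 0.28 for Hspa8, 0.32 for Hsp90aa1, 0.22 for Dnajb1, 0.25 for Stip1 and 0.12 for Hsph1. All kept their sign, and that of Hsp90aa1 differed most between the sets. Those fits have 1 library in one group and called 0 of the chaperone genes.

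In the Cas9 and Ctrl libraries no chaperone gene was called. In limma 0 of 11407 tested genes passed in either direction (0%), 210 (1.84%) had an unadjusted p under 0.05, and voom on the recovered reads called 0 as well. None of the 10 genes had an unadjusted p under 0.05. With 1 Ctrl library the spread comes from the 3 Cas9 libraries alone, and Ctrl 3 is assumed to vary like them. In 5 of the 10 genes all Cas9 libraries lay above Ctrl 3 and in 0 below, against 20.1% and 22.5% of all tested genes. None of the genes in the 6 related lists was called either.

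**Figure D4:**
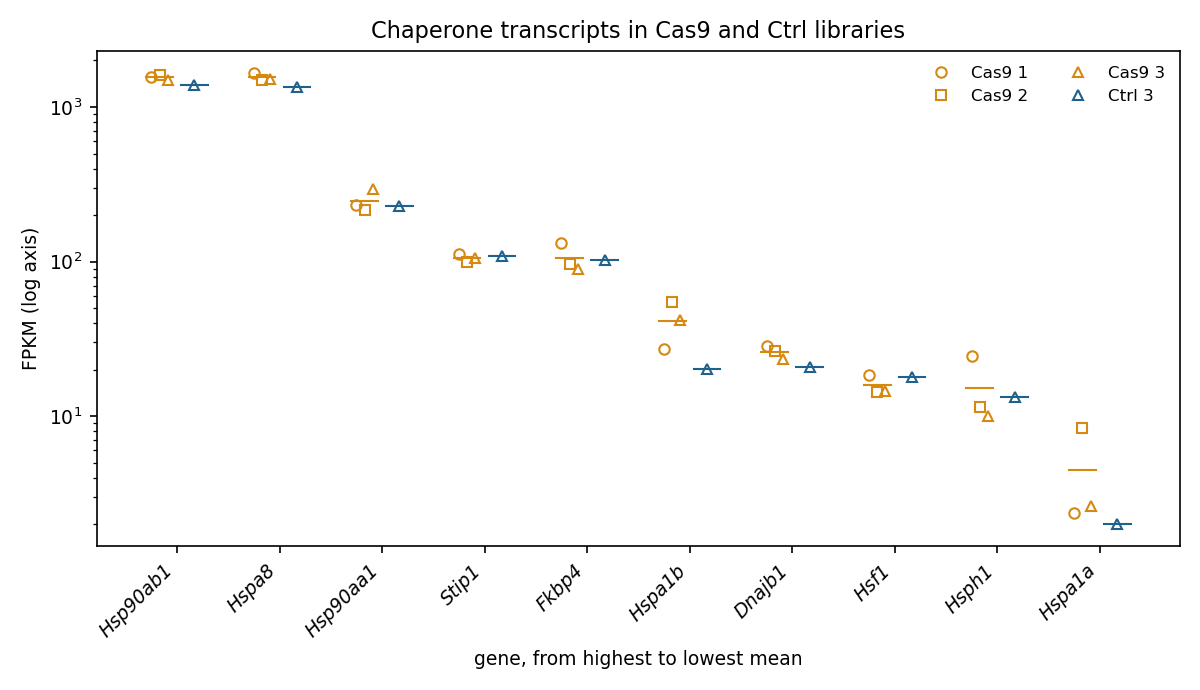
FPKM (log axis) of the 10 chaperone genes in each Cas9 library (orange, left of each pair) and in Ctrl 3 (blue, right). Points are libraries and lines are means (for Ctrl its single value); Hspa1a and Hspa1b peak in Cas9 2 and Hsph1 in Cas9 1.

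The inducible pair had the largest log2 changes of the 10 genes, with the spread to match. Hspa1b had 27.4, 55.0 and 42.1 FPKM in Cas9 1 to 3, against 20.2 FPKM in Ctrl 3 (log2 change 0.95, SE 0.39, unadjusted p = 0.0623 and adjusted p = 1 in limma). Hspa1a had 2.35, 8.41 and 2.61 FPKM in Cas9 1 to 3, against 2.01 FPKM in Ctrl 3. Both copies were highest in Cas9 2. The log2 change of Hspa1b was 0.72 without Cas9 2, 1.21 without Cas9 1 and 0.91 without Cas9 3. Without Cas9 2 the log2 change of Hspa1a was 0.21, against 0.69 with it (SE 0.65, limma adjusted p = 1). Relative to Hspa8, the summed pair stood at 0.018, 0.0423 and 0.0295 in Cas9 1 to 3, against 0.0165 in Ctrl 3.

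The constitutive genes differed less between libraries than the inducible pair. Hsp90ab1 had 1573, 1621 and 1492 FPKM in Cas9 1 to 3, against 1391 FPKM in Ctrl 3, and Hspa8 had 1652, 1498 and 1513 FPKM, against 1346 FPKM in Ctrl 3. All Cas9 values of both genes exceeded Ctrl 3, but the log2 changes of 0.17 and 0.21 (SE 0.16 each) were not called. Dnajb1 had 28.5, 26.5 and 23.3 FPKM in the Cas9 libraries, against 20.9 FPKM in Ctrl 3 (log2 change 0.30, SE 0.17, limma adjusted p = 1).

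The other 5 genes lay on both sides of Ctrl 3. Hsp90aa1 had 234, 215 and 294 FPKM in Cas9 1 to 3, against 229 FPKM in Ctrl 3, and Stip1 had 112, 99.9 and 106 FPKM, against 108 FPKM. Hsph1 had 24.4, 11.4 and 10.1 FPKM in Cas9 1 to 3, against 13.3 FPKM in Ctrl 3, and Fkbp4 had 132, 96.4 and 90.0 FPKM, against 103 FPKM. Hsf1 had 18.6, 14.3 and 14.5 FPKM in Cas9 1 to 3, against 17.9 FPKM in Ctrl 3. Of the 10 genes, Cas9 1 was the highest Cas9 library for Hspa8, Hsph1, Dnajb1, Fkbp4, Stip1 and Hsf1, Cas9 2 for Hsp90ab1, Hspa1a and Hspa1b, and Cas9 3 for Hsp90aa1. The leukocyte sum was 2221 FPKM in the lowest Cas9 library and 5464 FPKM in the highest, and the fibroblast sum ran from 319 to 1078 FPKM in Cas9 with 707 FPKM in Ctrl 3. Their part in the spread of the chaperone genes was not tested, and in bulk samples fewer cells of a type and less RNA per cell cannot be told apart.

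Levels were not compared across the tables, since these were normalised apart and over different gene lengths. For Hspa8 the shortest length that gave whole reads was 2104 bases in the Cas9 and Ctrl table, while the annotated length of 4301 bases did so in the GSH and WT table.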

How the data were processed

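The authors deposited 1 table of normalised values per library, and neither the labels nor the headers name the unit. The values were taken as FPKM made by the authors, because a gene's low values step by what 1 read is worth at its length. Per the submitters' processing notes, Bowtie2 (2.2.3), HISAT2 (2) and HTSeq (0.6.0) were used with the build mm8, without the role of each. Merged exon lengths of GENCODE M21, which was not made on mm8, fitted 96.44% of the GSH and WT genes. For these libraries the lengths thus contradict the build of the notes, so no coordinates of the files' own build are given. Solving for library totals and lengths gave whole reads for 100% of genes above 0 in both tables. The tolerance was 0.02 read for annotated lengths and 0.003 read for searched lengths, each with a small allowance for rounding. All lengths of the Cas9 and Ctrl table were searched. For a gene with few values above 0 some length nearly always fits, so that 100% is in part fixed by the search. Of each total, 98.31 to 100% was recovered. The shortest length found was used and can be a divisor of the true one, which scales a gene's reads alike in all libraries. Symbols were found for 30190 of 30803 Ensembl identifiers.

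Tests used limma 3.58.1 in R 4.3.3: lmFit and eBayes with a trend on log2(FPKM + 1), over genes with a mean of 1 FPKM or more, with Benjamini-Hochberg adjustment over all tested genes (12283 for GSH against WT, 11407 for Cas9 against Ctrl), two-sided. Fold changes on this scale understate those of low genes. The code was run on simulated libraries in which every gene had the same dispersion, so it was not tested at the spread of the Cas9 libraries. Ratios were compared with exact permutation tests. Alternatives were another pseudocount, filters, scalings, no trend, voom, a replicate block, a term for secretory transcripts and leaving out each library. Genes named are the 10 members, and in each related list the 3 with the smallest p plus any called against the list's direction. Members, lists and tests were chosen with earlier results of these data known. Same-numbered libraries were not treated as pairs. The correlation of their deviations was 0.479, -0.107 and 0.209 for numbers 1 to 3. For unlike numbers it ran from -0.491 (GSH 1 with WT 3) to 0.393 (GSH 2 with WT 3). These values cannot decide whether libraries were paired, because deviations from a mean of 3 libraries depend on each other.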

Additional observations from a re-analysis of the deposited data

How the results depend on the processing

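Hsp90ab1, Hspa8, Hsp90aa1, Dnajb1, Fkbp4 and Stip1 were called higher in GSH under all alternatives except the 2 fits within libraries of like secretory content, where 0 chaperone genes were called. The adjusted p of these 6 genes lay between 1.89e-05 and 0.172 across the alternatives. Leaving out 1 library gave 6 to 7 higher and 0 lower calls among the chaperone genes, and 1663 to 2089 higher and 1335 to 1631 lower calls among all genes. With the replicate block 7 chaperone genes and 2145 genes in all were called higher; the block ended the call of Stub1. The alternatives covered all genes, but their values for Hspa4l and Hyou1 were not summarised and are not given here. Rescaling without mitochondrial genes gave 1446 higher calls in all, ended the calls of Hsph1, Hspa14, Bag6, Dnaja1 and Dnaja2, gave 1 lower chaperone gene, Hsf1, and turned the log2 change of Hspa1b to -0.04; the cause was not tested. Within the libraries high in secretory transcripts 0 genes were called higher and 0 lower, and within the others 3 and 1, fits with fewer samples; Hsbp1 stood at -0.01 in those others. In Cas9 against Ctrl, uncalled log2 changes turned sign for Fkbp4 and Hsph1 without Cas9 1 (-0.14 and -0.28), for Stip1 without Cas9 2 (0.01) and for Hsp90aa1 without Cas9 3 (-0.03). Lowest and highest values over these leave-outs were -0.14 and 0.13 for Fkbp4, -0.28 and 0.31 for Hsph1, -0.07 and 0.01 for Stip1 and -0.03 and 0.19 for Hsp90aa1. The rescaling without mitochondrial genes was not run for Cas9 against Ctrl. In GSH against WT no ratio changed direction with RPM (reads scaled to the library total) in place of FPKM or without any 1 library; neither was run for the ratios of Cas9 to Ctrl libraries. Hspa1a, with 14 to 24 reads a library in GSH and WT, was not tested there.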
